A study of Mus musculus with 9 samples.

Results

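The genes described are 34 glycolysis and glucose transport genes, chosen by name and followed across sorted mouse spleen monocytes. They comprise the glucose transporters, the enzymes from hexokinase to lactate dehydrogenase, the lactate transporters, regulators of phosphofructokinase and of pyruvate oxidation, the hypoxia factor Hif1a and the pentose phosphate enzymes. All 34 were found among the 55487 gene identifiers of each table, and all 34 passed the filter on low counts. The 9 untreated libraries form groups of 3 and all come from C57BL/6 mice. The groups are Ly6Chi monocytes of WT mice, Ly6Clo monocytes of WT mice, and Ly6Clo monocytes of Cebpa +37-/- mice. In the third group, called KO Ly6Clo here, both copies of the +37 element of Cebpa are deleted, and Cebpa encodes the myeloid transcription factor C/EBPα. Ly6Chi monocytes of Cebpa +37-/- mice were not analysed here. The sources used here give neither the ages of the mice nor whether the 3 libraries of a group came from separate animals, so p-values measure only the spread between these libraries.

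Glycolysis splits glucose into pyruvate. Hexokinase traps the sugar inside the cell, phosphofructokinase commits it to breakdown, and lactate dehydrogenase or pyruvate dehydrogenase then decides whether the carbon leaves as lactate or enters the mitochondrion. Most steps can be run by several isoenzymes, which are encoded by different genes and used to different degrees by different tissues. Ly6Chi monocytes are the classical, inflammatory subset, and many of them convert into Ly6Clo monocytes, the patrolling subset of the circulation.

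The tables held 48141590 to 173703361 counts per library, so 3 counts stood for 0.0173 to 0.0623 CPM, the unit of the levels below, which divides counts by the scaled size of the library. The 7 Ly6Chi markers separated the labelled subsets and summed to 7217 to 8235 CPM in WT Ly6Chi libraries and to 134 to 261 CPM in all Ly6Clo libraries. The 8 Ly6Clo markers separated them less: they summed to 1303 to 6150 CPM in WT Ly6Chi, 9738 to 19580 CPM in WT Ly6Clo and 6824 to 13540 CPM in the KO libraries. Of those markers Nr4a1 (322 to 2785 CPM in WT Ly6Chi, 1638 to 11130 CPM in the Ly6Clo libraries) and Cx3cr1 (180 to 459 against 325 to 605 CPM) overlapped between the subsets, as did Itgal. Cebpa was at 17.7 to 19.2 CPM in WT Ly6Clo, against 2.74 to 4.04 CPM in the KO libraries. Some libraries stood apart. The replicate 1 library of each group had a low summed level of 12 immediate early and heat shock genes, 1714 to 2650 CPM against 10400 to 22550 CPM in the other 6. Erythroid markers (10 of 10 matched, none at 0 in all libraries of a group) summed to 146 to 251 CPM in WT Ly6Chi, 417 to 3441 CPM in WT Ly6Clo, against 14.8 to 7785 CPM in the KO libraries. WT Ly6Chi replicate 3 had Xist at 30.0 CPM and 3 Y-linked genes, Ddx3y, Eif2s3y and Kdm5d, at 0, the reverse of the other 8 libraries. By these genes WT Ly6Chi replicate 3 shared no animal with the other 8 libraries. Of the 34 genes, Pgk1, Pdk3, Pdha1 and G6pdx lie on the X chromosome.

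Of the 34 genes 6 were called in at least 1 comparison, among them isoenzymes of lactate dehydrogenase, enolase and hexokinase. Between the WT subsets, Eno3 rose in Ly6Clo cells while Ldhb and Pdk3 fell. Calls are adjusted p under 0.05 in edgeR's quasi-likelihood fit over all 18341 tested genes. The 3 called genes compare with 3.51% of all tested genes (1 higher against 1.88% of all genes, 2 lower against 1.62%). Without adjustment 13 of 34 had p under 0.05 (18.2% of all genes), and 18 of 34 had WT Ly6Clo and WT Ly6Chi libraries that did not overlap (28.3% of all genes). Their median log2 fold change was 0.12, against 0.00 over all genes.

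Between KO Ly6Clo and WT Ly6Chi cells, 5 of 34 genes were called, where 4.52% of all genes were. Eno3 and Ldha were higher (2 genes, against 2.06% of all genes), and Hk3, Ldhb and Pgd were lower (3 genes, against 2.46%). Unadjusted p was under 0.05 for 15 of 34 (16.9% of all genes), and 17 of 34 did not overlap (22.9% of all genes). The median was 0.05 against 0.04 over all genes. This comparison and the preceding one use the same WT Ly6Chi libraries, so their values are given side by side and are not independent. KO Ly6Clo and WT Ly6Chi cells differ in both subset and genotype, so the parts of subset and genotype in these differences cannot be told apart.

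Between KO and WT Ly6Clo cells edgeR called none of the 34 genes, where it called 0.0709% of all genes (0.0109% higher and 0.06% lower). Limma-voom also called none, edgeR with the replicate number as a block called 1, Ldhb, and DESeq2 called 3, Hk3, Ldhb and Pdk3. The unadjusted edgeR p was under 0.05 for 5 of 34 (6.16% of all genes), namely Ldhb, Pdk3, Hk3, Pfkfb4 and Eno1. Libraries did not overlap for 9 of 34 (10.9% of all genes). Of the 34 fold changes 10 were above 0 and 24 below, with a median of -0.14 against 0.03 over all genes.

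**Figure D1:**
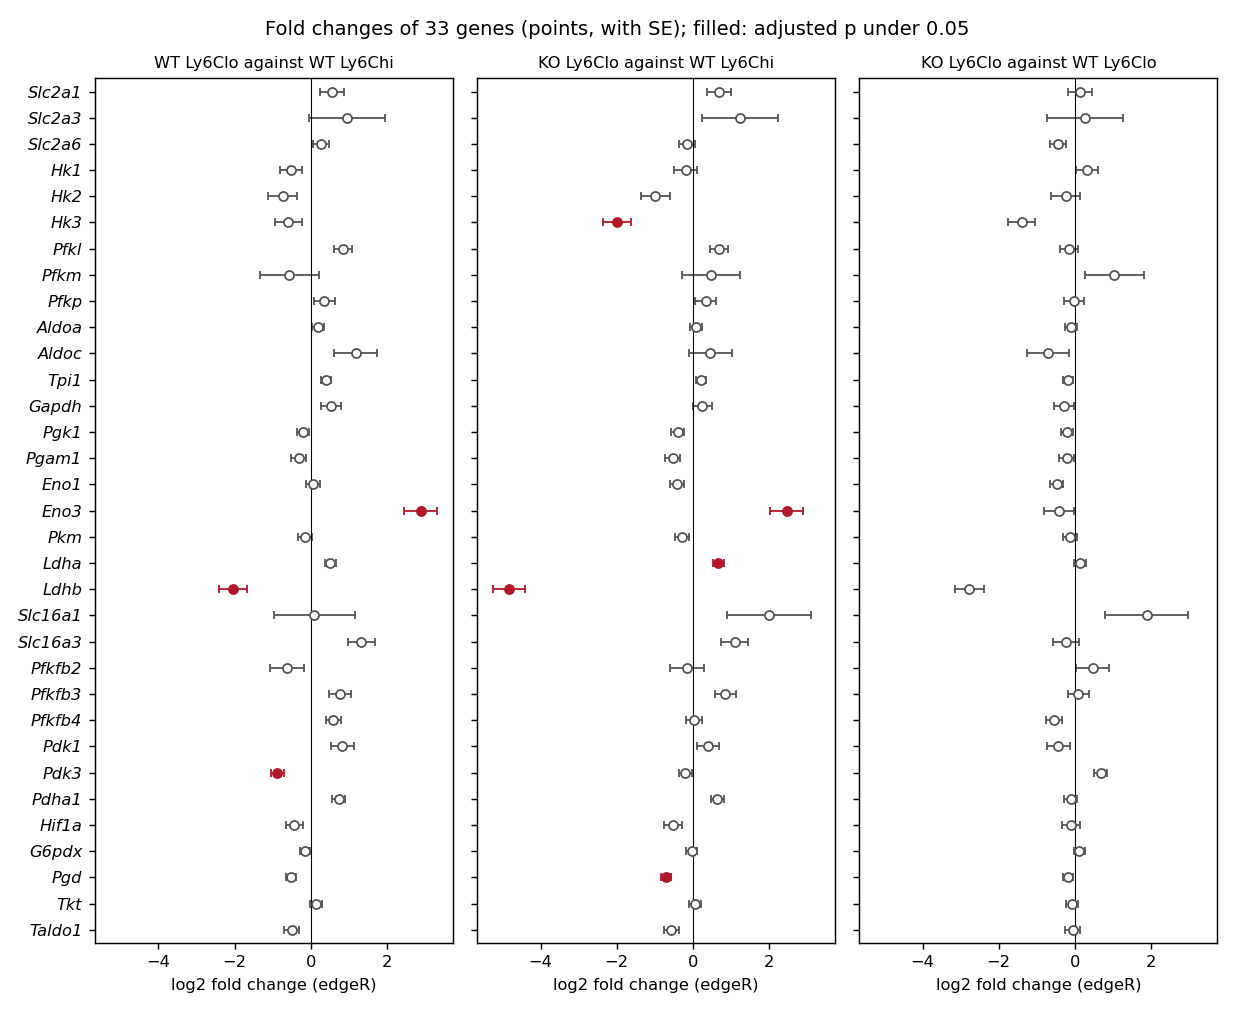
Log2 fold change from edgeR with its standard error for 33 of the 34 genes in the 3 comparisons, filled red where adjusted p was under 0.05; Eno2, with a mean of at most 0.585 CPM in any group, is left out. Ldhb lies at -2.05, -4.82 and -2.77 from left to right, and Eno3 at 2.89, 2.47 and -0.42.

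The 6 called genes lie, on GRCm38, at chr6:142490249-142507957 (Ldhb, minus strand), chr7:46841475-46855627 (Ldha, plus strand), chr11:70657202-70662513 (Eno3, plus strand), chr13:55005985-55021385 (Hk3, minus strand), chrX:93764607-93832201 (Pdk3, minus strand) and chr4:149149991-149166771 (Pgd, minus strand). File names fall into 2 runs of library numbers, the first with WT Ly6Chi replicate 1 and replicates 1 and 2 of both Ly6Clo groups, and the second with the other 4 libraries. What the runs stand for is not stated, and several groups have 1 library in a run. Differences of mean log2(CPM + 1), a scale that understates changes of low genes, within the first and the second run had the same sign for each called pair. For KO Ly6Clo against WT Ly6Chi they were -3.43 and -4.89 for Ldhb, -2.38 and -1.48 for Hk3, 0.72 and 0.43 for Ldha, and -0.79 and -0.64 for Pgd. Between the WT subsets they were -1.23 and -2.32 for Ldhb and -1.05 and -0.64 for Pdk3, and those of Eno3 are given with its levels.

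Lactate dehydrogenase differed in both of its main subunits. The enzyme is a tetramer of subunits from Ldha, the muscle-type gene associated with making lactate, and Ldhb, the heart-type gene associated with using it. Ldhb was at 34.4, 74.5 and 61.5 CPM in WT Ly6Chi replicates 1 to 3, at 12.7, 15.5 and 12.8 CPM in WT Ly6Clo, against 1.79, 2.90 and 1.32 CPM in the KO libraries. The KO values rest on 115, 414 and 75 counts. No library of a group reached the range of another, and the order WT Ly6Chi, WT Ly6Clo, KO Ly6Clo held in all 9.

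Ldhb fell 4.15-fold in mean CPM from WT Ly6Chi to WT Ly6Clo (log2 fold change -2.05, SE 0.37, adjusted p 0.020). KO Ly6Clo cells had 28.4-fold less Ldhb than WT Ly6Chi cells (-4.82, SE 0.42, adjusted p 0.00059), a difference called under all 17 alternative settings. Against WT Ly6Clo cells the KO mean was 6.84-fold lower (-2.77, SE 0.38, unadjusted p 4.7e-05), but the adjusted p of 0.053 missed the threshold. With the replicate number as a block, whose correlations for this comparison are given with the processing, the value was -2.82 and the adjusted p 0.047. Over the 17 alternatives this last difference stayed between -3.16 and -2.54 with adjusted p from 6.8e-10 to 0.21, and 5 of them called it.

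The call between the WT subsets did not hold when WT Ly6Chi replicate 2 (adjusted p 0.084) or 3 (0.072) was left out, or WT Ly6Clo replicate 1 (0.091), 2 (0.067) or 3 (0.093). T cell markers (7 of 7 matched, none at 0 in all libraries of a group) summed to 88.4 to 141 CPM in WT Ly6Chi, 57.5 to 151 CPM in WT Ly6Clo, against 27.3 to 147 CPM in the KO libraries. Neutrophil markers (11 of 11 matched, Ngp at 0 in WT Ly6Clo) summed to 640 to 1217, 361 to 467 and 172 to 362 CPM in the same order. Csf3r made up most of the sum in the Ly6Clo libraries, with means of 421 CPM in WT Ly6Clo and 256 CPM in KO Ly6Clo. Cxcr2, Mpo and Elane also had lower means in KO than in WT Ly6Clo. S100a8, S100a9, Camp, Ltf, Ngp, Ly6g and Retnlg had higher ones, such as 4.95 against 0.821 CPM for S100a8. The granule genes Ngp (35.0 to 256 CPM), Ltf (20.9 to 121 CPM) and Camp (9.28 to 88.2 CPM) were present in WT Ly6Chi and at or under 4.07 CPM in each Ly6Clo library, whereas Ly6g was at or under 0.411 CPM in all 9. The part of either in Ldhb was not tested, and in bulk libraries fewer cells of a type and less RNA per cell cannot be told apart. The processed pseudogene Gm5514 matches Ldhb transcripts at 98.0% over 1002 bases. It was at 3.89, 1.20 and 0.752 CPM in the 3 groups, so reads shared between them are less certain.

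Ldha, in contrast to Ldhb, was higher in KO Ly6Clo than in WT Ly6Chi cells. It was at 481, 478 and 435 CPM in WT Ly6Chi, 644, 708 and 647 CPM in WT Ly6Clo, against 744, 851 and 617 CPM in the KO libraries. Both Ly6Clo groups lay above WT Ly6Chi without overlap, and overlapped each other. The difference between KO Ly6Clo and WT Ly6Chi was 0.67 (SE 0.15, adjusted p 0.044), a call that 5 of 17 alternatives kept and that leaving out any 1 of the 9 libraries ended (adjusted p 0.052 to 0.18). The call was also lost with no filter (0.16), with the term for the runs (0.078) and in the fit of these groups alone (0.13). Between the WT subsets the value was 0.52 (SE 0.15, adjusted p 0.11), which 1 of 17 alternatives, DESeq2, called (adjusted p over the 17 from 0.019 to 0.31). TPM corrects for gene length by dividing by the deposited length of each gene. In TPM, Ldhb made up 20.3% ± 6.26 (SD, n = 3) of lactate dehydrogenase transcripts in WT Ly6Chi, 4.14% ± 0.247 in WT Ly6Clo, against 0.555% ± 0.141 in the KO libraries. The family sum was 538 ± 35.4, 645 ± 4.62 and 736 ± 99.9 TPM.

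**Figure D2:**
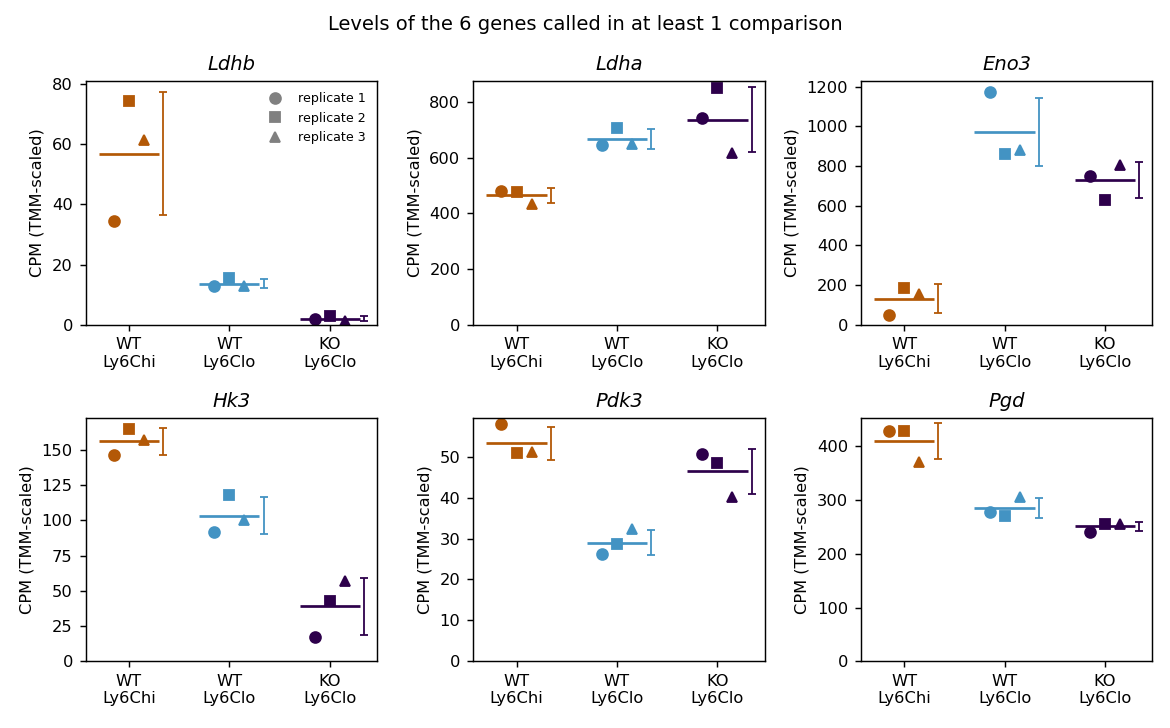
CPM on TMM-scaled library sizes for the 6 genes called in at least 1 comparison, with 1 point per library (circle, square and triangle for replicates 1, 2 and 3), the group mean as a line and the SD (n = 3) as a bar at its side; each axis starts at 0. Ldhb steps down from 34.4 to 74.5 CPM in WT Ly6Chi to 1.32 to 2.90 CPM in KO Ly6Clo, and Eno3 is at or above 629 CPM in each Ly6Clo library.

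The stretches before the start sites of these genes are shown because Ldha and Ldhb run the same reaction but differed in opposite directions between KO Ly6Clo and WT Ly6Chi, and because Eno3 had the largest called increase of the set. They are the 250 bases before the RefSeq start on GRCm38.p6, 5′ to 3′ on the strand of the gene. Capitals mark ACGTG on either strand, the core bound by hypoxia-inducible factors and shared with E-boxes bound by other factors. Ldha at chr7:46845554-46845803 (plus strand) holds 5 matches, of which overlapping pairs on both strands form CACGTG. RefSeq has another Ldha start, whose window holds none. The windows of Ldhb at chr6:142507958-142508207 (minus strand) and of Eno3 at chr11:70656926-70657175 (plus strand) hold no match.

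Ldha: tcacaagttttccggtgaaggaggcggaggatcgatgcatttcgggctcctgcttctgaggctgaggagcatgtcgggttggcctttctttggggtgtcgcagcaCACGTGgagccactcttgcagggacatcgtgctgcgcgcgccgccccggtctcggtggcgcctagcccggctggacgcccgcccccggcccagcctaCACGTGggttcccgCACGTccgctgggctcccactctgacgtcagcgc
Ldhb: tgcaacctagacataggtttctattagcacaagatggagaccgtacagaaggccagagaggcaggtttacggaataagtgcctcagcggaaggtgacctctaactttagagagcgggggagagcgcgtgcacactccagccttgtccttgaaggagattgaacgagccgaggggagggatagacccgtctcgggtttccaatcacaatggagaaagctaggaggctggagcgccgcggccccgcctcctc
Eno3: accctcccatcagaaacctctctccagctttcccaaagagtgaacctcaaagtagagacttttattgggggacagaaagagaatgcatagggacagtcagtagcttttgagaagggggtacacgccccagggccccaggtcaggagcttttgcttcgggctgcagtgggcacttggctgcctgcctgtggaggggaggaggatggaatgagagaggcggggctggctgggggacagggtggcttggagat

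Across the genes studied, 33 had RefSeq start windows, 49 in all. ACGTG on either strand stood in 19 of the 49 windows (38.8%), against 16.6% of all 32851 windows of the same length, and 15 genes had at least 1 match. Windows of 1 gene can overlap, so 1 site can count more than once. The Aldoa matches at -126 and -202 from their starts are the same site. The windows were also richer in G and C, 59.5% against 53.2% on average, and the part of base composition in the share was not tested. Among the called genes Hk3 and Pdk3 also held a match, while Pgd did not. The C/EBP core TTGCNNAA on either strand stood in 2 of 49 windows (4.08%, against 9.56% of all windows), those of Pkm and Pfkm. AAAGGTCA, the site of NR4A receptors, stood in 1 window (2.04%, against 1.34%), 164 bases before the start of Eno1. A match describes letters only and shows neither a bound site nor a cause.

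Enolase makes phosphoenolpyruvate, and its genes are the broadly expressed Eno1, the neuronal Eno2 and the muscle-type Eno3. Eno3 was at 49.4, 187 and 157 CPM in WT Ly6Chi replicates 1 to 3. It was at 1172, 861 and 883 CPM in WT Ly6Clo, against 749, 629 and 806 CPM in the KO libraries. WT Ly6Chi lay below both Ly6Clo groups without overlap, and each KO library was below each WT Ly6Clo library.

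Eno3 was 7.41-fold higher in WT Ly6Clo than in WT Ly6Chi cells (2.89, SE 0.43, adjusted p 0.010) and 5.55-fold higher in KO Ly6Clo than in WT Ly6Chi cells (2.47, SE 0.43, adjusted p 0.013). Both calls were kept under all 17 alternatives. KO and WT Ly6Clo differed by -0.42 (SE 0.40, adjusted p 1.0). In the WT Ly6Chi group the library with the least Eno3, replicate 1, also had the least of the 8 Ly6Clo markers, 1303 CPM against 5698 and 6150 CPM, and of Treml4, 148 against 347 and 398 CPM. Nr4a1 made up 322, 2627 and 2785 CPM of the marker sums of replicates 1 to 3. The immediate early and heat shock sum was also lowest in replicate 1, at 1714 CPM against 16040 and 16400 CPM. The part of either set of transcripts in the level of Eno3 was not tested. Within the first and second runs of library numbers WT Ly6Clo exceeded WT Ly6Chi by 4.32 and 2.36 on the log2(CPM + 1) scale, and KO Ly6Clo by 3.77 and 2.23. The values of the first run rest on WT Ly6Chi replicate 1 alone.

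Eno1 was far more even. Its WT Ly6Chi libraries were at 1467, 1493 and 1433 CPM, WT Ly6Clo at 1560, 1803 and 1203 CPM, and KO Ly6Clo at 966, 1293 and 1022 CPM. No comparison called it (adjusted p 0.28 to 0.91). Eno2 was near the floor, at 0.0155 to 1.70 CPM per library. The enolase sum was 1059 ± 117 TPM in WT Ly6Chi, 2593 ± 409 in WT Ly6Clo, against 2051 ± 142 in the KO libraries. Eno3 supplied 20.9% ± 9.99, 66.3% ± 5.80 and 67.2% ± 6.17 of it, so that by TPM Eno1 led in WT Ly6Chi and Eno3 in both Ly6Clo groups. By counts, without the length correction, Eno1 led in all groups. The TPM used gene lengths of 5379 bases for Eno1 and 1739 for Eno3, so enolase shares, sums and ranks by TPM depend on these lengths. Whether they match the expressed transcripts was not tested. Of the 34 genes Eno3 ranked 9 by TPM in WT Ly6Chi (229 TPM) and 1 in WT Ly6Clo (1727 TPM).

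Hexokinases phosphorylate glucose. Hk1 is broadly expressed, Hk2 is the inducible, insulin- and hypoxia-responsive enzyme, and Hk3 is the form typical of myeloid cells. Hk3 was at 146, 165 and 157 CPM in WT Ly6Chi, 91.9, 118 and 100.0 CPM in WT Ly6Clo, against 17.4, 42.6 and 57.1 CPM in the KO libraries. The 3 groups did not overlap. Hk3 was 3.99-fold lower in KO Ly6Clo than in WT Ly6Chi cells (-2.0, SE 0.37, adjusted p 0.018), a call kept by 14 of 17 alternatives but not with WT Ly6Chi replicate 2 (adjusted p 0.066), WT Ly6Chi replicate 3 (0.060) or KO replicate 2 (0.056) left out. Against WT Ly6Clo the KO mean was 2.65-fold lower (-1.40, SE 0.36, unadjusted p 0.0036), which did not pass the adjustment (adjusted p 0.43), although DESeq2 called it (adjusted p 0.019). The neutrophil marker sums given beside Ldhb were likewise highest in WT Ly6Chi, and their part in Hk3 was not tested.

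Hk1 and Hk2 did not pass the test in any comparison. Hk1 averaged 141 ± 27.7, 99.0 ± 24.4 and 123 ± 40.3 CPM in WT Ly6Chi, WT Ly6Clo and KO Ly6Clo (adjusted p 0.40 to 1.0). Hk2 averaged 78.7 ± 29.1, 47.1 ± 20.9 and 39.9 ± 9.13 CPM (adjusted p 0.23 to 1.0). In TPM, Hk3 supplied 59.3% ± 5.90 of hexokinase transcripts in WT Ly6Chi, 59.0% ± 3.64 in WT Ly6Clo, against 31.9% ± 8.90 in the KO libraries. Hk1 supplied 22.8%, 24.2% and 45.6%. The hexokinase sum was 219 ± 27.2, 146 ± 12.0 and 105 ± 34.3 TPM.

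Glucose enters through facilitative transporters. Slc2a1 encodes the ubiquitous GLUT1, Slc2a3 the high-affinity GLUT3, and Slc2a6 encodes GLUT6, a transporter found on lysosomes. Slc2a6 was the main transcript of the trio, with 84.0% ± 4.01, 81.3% ± 4.78 and 74.2% ± 5.67 of their TPM in WT Ly6Chi, WT Ly6Clo and KO Ly6Clo. Its libraries were at 188, 250 and 177 CPM, then 234, 244 and 273 CPM, then 138, 200 and 216 CPM. Each KO library was below each WT Ly6Clo library, but the difference of -0.44 (SE 0.21) was not called (adjusted p 0.86).

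Slc2a1 averaged 40.1 ± 10.2, 58.9 ± 17.8 and 64.5 ± 22.0 CPM (adjusted p 0.32 to 1.0). Slc2a3 was low and uneven, from 2.22 to 8.27 CPM in WT Ly6Chi, 3.52 to 12.9 CPM in WT Ly6Clo, against 0.636 to 19.8 CPM in the KO libraries, lowest in the replicate 1 library of each group. It was not called (adjusted p 0.63 to 1.0). The immediate early and heat shock sum was also lowest in these replicate 1 libraries, and its part in Slc2a3 was not tested.

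Phosphofructokinase makes fructose 1,6-bisphosphate from subunits of liver (Pfkl), muscle (Pfkm) and platelet (Pfkp) type. Pfkl was at 96.1, 105 and 72.2 CPM in WT Ly6Chi, 130, 219 and 143 CPM in WT Ly6Clo, against 125, 174 and 142 CPM in the KO libraries. Both Ly6Clo groups lay above WT Ly6Chi without overlap, with differences of 0.85 (SE 0.24, adjusted p 0.10) and 0.69 (SE 0.24, adjusted p 0.18) that edgeR did not call. The first was called by 2 of 17 alternatives, the replicate block and DESeq2 (adjusted p over the 17 from 0.022 to 0.33). Pfkp ranged from 127 to 219 CPM in WT Ly6Chi, 180 to 287 CPM in WT Ly6Clo and 174 to 262 CPM in the KO libraries (adjusted p 0.53 to 1.0). Pfkm was the minor form at 1.24 to 22.4 CPM per library (adjusted p 0.77 to 1.0). Its span overlaps that of Senp1 on the other strand over 1156 bases. Senp1 averaged 60.3, 65.6 and 72.8 CPM in WT Ly6Chi, WT Ly6Clo and KO Ly6Clo, and the use of strand in counting is not stated. Both main forms contributed in each group: Pfkl supplied 46.9% ± 10.1, 57.3% ± 1.71 and 52.6% ± 4.11 of the TPM, and Pfkp 43.3% ± 9.46, 38.5% ± 1.33 and 38.3% ± 1.82. By counts, without the length correction, the order turned, with Pfkp at 62.3%, 56.5% and 57.3% and Pfkl at 34.2%, 41.9% and 39.2%. The gene lengths used were 13401 bases for Pfkp and 6675 for Pfkl.

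Fructose 2,6-bisphosphate, the strongest activator of phosphofructokinase, is made and removed by the bifunctional enzymes of the Pfkfb genes. Pfkfb4 led this family with 86.6%, 86.2% and 79.3% of its TPM in WT Ly6Chi, WT Ly6Clo and KO Ly6Clo. Its libraries were at 166, 253 and 236 CPM in WT Ly6Chi, at 328, 332 and 329 CPM in WT Ly6Clo, against 176, 226 and 270 CPM in the KO libraries. The WT Ly6Clo libraries were above all others, but neither the difference from WT Ly6Chi (0.60, SE 0.21, adjusted p 0.17) nor that of KO from WT Ly6Clo (-0.56, SE 0.21, adjusted p 0.71) was called. Pfkfb3, the inducible, kinase-dominant form, averaged 46.2 ± 11.6, 78.8 ± 24.7 and 83.7 ± 17.5 CPM (adjusted p 0.14 to 1.0). Pfkfb2, known from heart, was at 2.23 to 7.59 CPM per library (adjusted p 0.52 to 1.0).

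From aldolase to pyruvate kinase, apart from Eno3, the shared pathway was carried by abundant genes, and edgeR called none of them in any comparison. Aldoa, the main aldolase, averaged 534 ± 65.3, 608 ± 44.1 and 567 ± 49.0 CPM and supplied 99.6%, 99.2% and 99.5% of aldolase TPM, with Aldoc at 1.31 to 7.50 CPM per library. A second identifier that carries the symbol Aldoa was kept apart and never exceeded 1.39 CPM. Tpi1, which interconverts the triose phosphates, was at 190, 185 and 168 CPM in WT Ly6Chi, 257, 231 and 227 CPM in WT Ly6Clo, against 191, 215 and 226 CPM in the KO libraries. Its groups did not overlap in any comparison, yet the differences were small (0.40, 0.22 and -0.18 between the WT subsets, from WT Ly6Chi to KO, and from WT Ly6Clo to KO) and not called by edgeR (adjusted p 0.17, 0.50 and 1.0), although DESeq2 called the first (adjusted p over its 17 alternatives from 0.038 to 0.44).

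Gapdh, the oxidative step and a common reference gene, was at 538, 456 and 487 CPM in WT Ly6Chi, 776, 737 and 637 CPM in WT Ly6Clo, against 360, 787 and 613 CPM in the KO libraries. The KO libraries spanned the levels of both other groups (adjusted p 0.31 to 1.0). Pgk1, which yields ATP from 1,3-bisphosphoglycerate, averaged 110 ± 14.9, 96.1 ± 3.81 and 83.6 ± 11.1 CPM. Pgam1, the mutase of the next step, averaged 101 ± 7.82, 81.2 ± 7.83 and 70.1 ± 17.0 CPM. Pkm, the pyruvate kinase whose M1 and M2 forms are splice variants that gene counts cannot separate, averaged 1388 ± 145, 1247 ± 214 and 1143 ± 223 CPM. None of these passed (adjusted p 0.25 to 1.0 for Pgk1, 0.21 to 1.0 for Pgam1 and 0.54 to 1.0 for Pkm).

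Lactate leaves the cell through monocarboxylate transporters, chiefly MCT4 (Slc16a3) in glycolytic cells, while MCT1 (Slc16a1) carries it in both directions. Slc16a3 was at 106, 292 and 276 CPM in WT Ly6Chi, 436, 735 and 523 CPM in WT Ly6Clo, against 481, 515 and 449 CPM in the KO libraries. Each Ly6Clo library was above each WT Ly6Chi library, with means 2.51-fold (1.33, SE 0.36, adjusted p 0.086) and 2.15-fold higher (1.10, SE 0.36, adjusted p 0.14), which edgeR did not call. The first was called by 4 of 17 alternatives, those with no filter, the replicate block, limma-voom and DESeq2 (adjusted p over the 17 from 0.0070 to 0.26), and the other by DESeq2 alone (0.038 to 0.32). In WT Ly6Chi the low library was again replicate 1. Slc16a3 overlaps Csnk1d on the other strand over 1879 bases, and the sources used here do not say whether counting used strand. Slc16a1 was at 7.65, 5.95 and 3.41 CPM, then 0.715, 9.91 and 7.64 CPM, then 1.57, 27.2 and 39.3 CPM. The pair of high KO libraries gave a difference of 1.89 from WT Ly6Clo with an SE of 1.09 (adjusted p 0.95). Those libraries also had the higher sums of cell cycle genes (441 and 611 CPM against 134 CPM) and erythroid markers (7785 and 1798 CPM against 14.8 CPM), whose part was not tested.

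Pyruvate dehydrogenase, with its catalytic subunit from Pdha1, sends pyruvate to acetyl-CoA, and the pyruvate dehydrogenase kinases switch it off. Pdk3 was at 57.9, 50.8 and 51.1 CPM in WT Ly6Chi, at 26.2, 28.6 and 32.2 CPM in WT Ly6Clo, against 50.7, 48.3 and 40.2 CPM in the KO libraries. WT Ly6Clo stood below both other groups. The KO libraries lay below those of WT Ly6Chi, replicates 1 and 2 only slightly and replicate 3, at 40.2 CPM, more clearly. Pdk3 fell 1.84-fold between the WT subsets (-0.88, SE 0.17, adjusted p 0.027), and KO Ly6Clo differed from WT Ly6Chi by -0.20 (SE 0.17, adjusted p 0.65). KO exceeded WT Ly6Clo by 0.68 (SE 0.17, unadjusted p 0.0032), without a call in edgeR (adjusted p 0.41) and with one in DESeq2 (adjusted p 0.0088).

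The call of Pdk3 between the WT subsets was kept by 9 of 17 alternatives. It was lost without any 1 of the 6 WT libraries (adjusted p 0.080 to 0.12), without KO replicate 2 (0.052) and with no filter on low counts (0.11). Pdk1, a kinase induced by hypoxia, was at 19.9, 34.7 and 42.3 CPM, then 58.5, 70.6 and 43.0 CPM, then 49.2, 38.2 and 40.7 CPM (adjusted p 0.18 to 1.0). Its part of the TPM of these kinases was 16.6% ± 5.82, 39.3% ± 7.68 and 23.3% ± 2.31. Pdha1 was at 97.1, 137 and 134 CPM in WT Ly6Chi, 195, 230 and 193 CPM in WT Ly6Clo, against 201, 188 and 186 CPM in the KO libraries. It lay higher in both Ly6Clo groups without overlap, by 0.74 (SE 0.17, adjusted p 0.051) and 0.64 (SE 0.17, adjusted p 0.077), just outside the threshold. The first was called by 4 of 17 alternatives, the filter of 1 CPM, the replicate block, limma-voom and DESeq2 (adjusted p over the 17 from 0.0021 to 0.16), and the other by DESeq2 alone (0.012 to 0.21). Pdha1 overlaps Map3k15 on the other strand over 1143 bases, and the use of strand in counting is not stated. Map3k15 averaged 42.9, 50.1 and 41.3 CPM in WT Ly6Chi, WT Ly6Clo and KO Ly6Clo. Pdk3 and Pdha1 are X-linked, and in WT Ly6Chi replicate 3, the library with Xist, they lay between the values of the other WT Ly6Chi libraries. The X-linked Pgk1 did so as well, whereas the X-linked G6pdx was highest in that library.

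The pentose phosphate pathway branches off at glucose 6-phosphate and supplies NADPH and ribose. Its second dehydrogenase, Pgd, was at 429, 429 and 371 CPM in WT Ly6Chi, at 278, 271 and 306 CPM in WT Ly6Clo, against 241, 256 and 256 CPM in the KO libraries. The 3 groups did not overlap. Pgd was lower in KO Ly6Clo than in WT Ly6Chi cells (-0.71, SE 0.13, adjusted p 0.021), which 12 of 17 alternatives kept. Leaving out WT Ly6Chi replicate 2 (adjusted p 0.096), KO replicate 2 (0.064) or KO replicate 3 (0.079) ended it. So did using no filter on low counts (0.16) and fitting the compared groups alone (0.059). Between the WT subsets the difference was -0.52 (SE 0.13, adjusted p 0.069), which 2 of 17 alternatives, limma-voom and DESeq2, called (adjusted p over the 17 from 0.00076 to 0.45). Between KO and WT Ly6Clo it was -0.18 (SE 0.13, adjusted p 1.0).

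The other enzymes of this branch were not called. G6pdx, the entry enzyme, averaged 470 ± 42.3, 422 ± 19.9 and 460 ± 37.6 CPM (adjusted p 0.62 to 1.0). In WT Ly6Chi replicates 1 to 3 it was at 434, 458 and 516.5 CPM. The last value, from the library with Xist, was the highest of all libraries, and the part of sex in it was not tested. Tkt, the transketolase that links the branch back to glycolysis, averaged 562 ± 75.0, 614 ± 10.7 and 583 ± 76.5 CPM (adjusted p 0.73 to 1.0). Taldo1, the transaldolase, was at 1502, 1022 and 1022 CPM in WT Ly6Chi, 926, 831 and 745 CPM in WT Ly6Clo, against 917, 769 and 719 CPM in the KO libraries. Its WT Ly6Chi libraries lay above the rest (-0.50, SE 0.19, adjusted p 0.21 for WT Ly6Clo, and -0.56, SE 0.19, adjusted p 0.17 for KO Ly6Clo). Hif1a, the oxygen-regulated activator of many glycolytic genes, ranged from 86.7 to 111 CPM in WT Ly6Chi, 64.1 to 86.6 CPM in WT Ly6Clo and 52.5 to 93.0 CPM in the KO libraries (adjusted p 0.30 to 1.0).

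**Figure D3:**
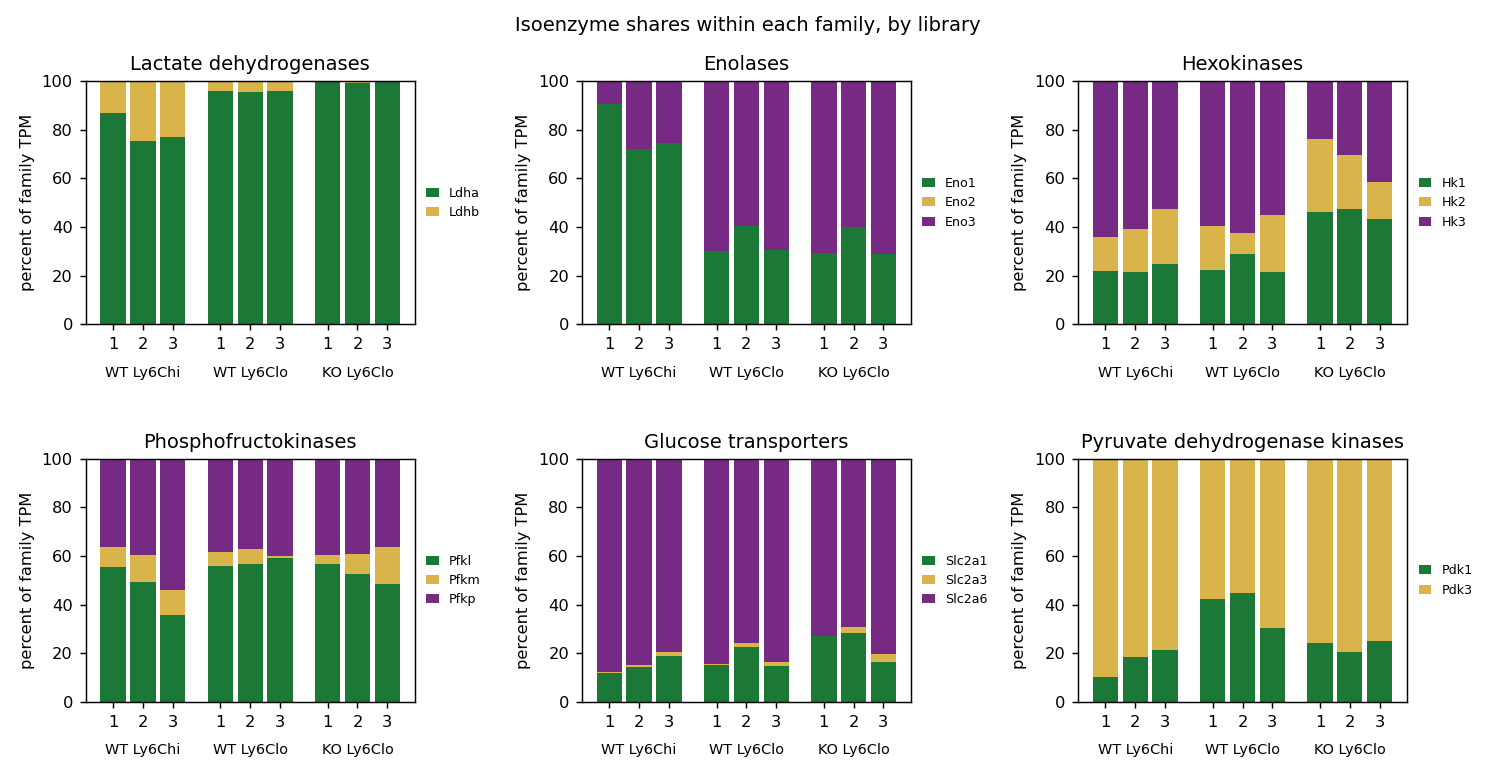
Percent of the family's TPM held by each isoenzyme, 1 stacked bar per library, for 6 families; bars are grouped as WT Ly6Chi, WT Ly6Clo and KO Ly6Clo with replicates 1 to 3. Eno3 holds 9.44% to 27.9% of enolase TPM in WT Ly6Chi and 59.6% to 70.9% in the Ly6Clo groups, and Hk3 holds 23.9% to 41.5% of hexokinase TPM in KO Ly6Clo against 52.7% to 64.2% in the WT libraries.

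The isoenzyme shares separated the groups in several patterns, given as descriptions without a test. Enolase and lactate dehydrogenase differed between the subsets. Ldhb held 13.1%, 24.7% and 23.0% of its family's TPM in WT Ly6Chi, 3.99% to 4.43% in WT Ly6Clo, against 0.504%, 0.715% and 0.448% in the KO libraries. Hexokinase differed in KO Ly6Clo from both WT groups, with Hk1 at 43.4% to 47.4% of the TPM against 21.5% to 28.9% in WT libraries. Pdk3 had its lowest share in WT Ly6Clo, 55.1% to 69.5% against 75.0% to 89.9% in the others. The aldolase and monocarboxylate families were held mainly by 1 gene, with Aldoa at 99.0% or more and Slc16a3 at 90.5% or more in each library. Summed over the 34 genes, transcripts amounted to 7489 ± 350 TPM in WT Ly6Chi, 9111 ± 552 in WT Ly6Clo, against 8527 ± 433 in the KO libraries. Eno3 alone supplied 229, 1727 and 1382 TPM of these sums. Most of the difference between the sums is therefore that of Eno3 and depends on the gene length used for it.

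**Figure D4:**
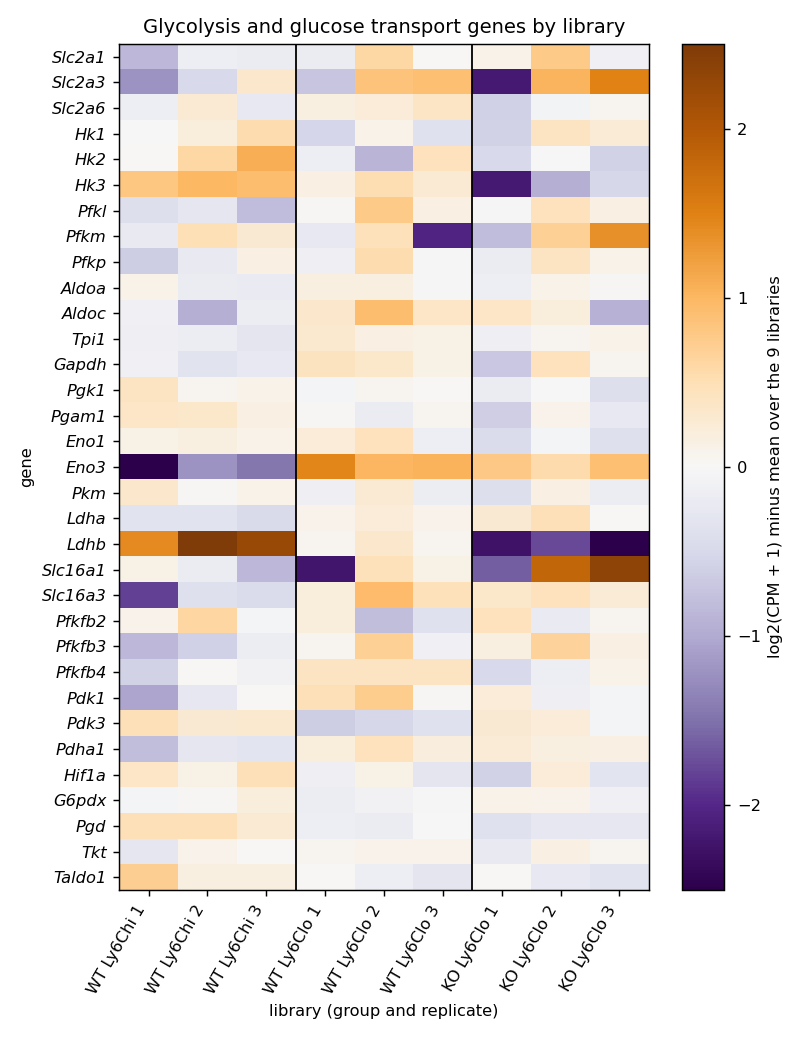
Each cell is log2(CPM + 1) of a gene in 1 library minus that gene's mean over the 9 libraries, for 33 of the 34 genes; colours saturate at 2.5 in either direction. Eno3 and Ldhb show the strongest blocks by group, whereas Slc2a3, Pfkm and Slc16a1 vary most between libraries of 1 group.

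Genes of neighbouring steps were counted from 5 lists of 61 genes, of which 14 were not tested for low counts. Their calls rest on the edgeR fit alone, as the 17 alternatives were not read for these lists. Among 8 tested transporters and relatives 1 was lower in WT Ly6Clo than in WT Ly6Chi (1.62% of all genes) and 1 in KO Ly6Clo (2.46%), and none was called between KO and WT Ly6Clo (0.0709%). That gene was Mpc1, a subunit of the mitochondrial pyruvate carrier, at 31.9, 17.7 and 17.3 CPM in WT Ly6Chi, 5.13, 7.33 and 6.87 CPM in WT Ly6Clo, against 7.73, 6.39 and 6.86 CPM in the KO libraries. It fell by 1.79 between the WT subsets (SE 0.32, adjusted p 0.021) and differed by -1.67 in KO Ly6Clo (SE 0.32, adjusted p 0.022). Its partner Mpc2 averaged 71.5, 71.1 and 67.7 CPM and was not called.

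Among 16 tested other glycolytic, gluconeogenic and hexose enzymes 1 was higher in WT Ly6Clo than in WT Ly6Chi (1.88% of all genes) and 1 in KO Ly6Clo (2.06%). It was Gpd2, the mitochondrial glycerol 3-phosphate dehydrogenase that passes cytosolic electrons to the respiratory chain. Gpd2 was at 28.0, 42.7 and 28.0 CPM in WT Ly6Chi, 71.3, 72.1 and 73.4 CPM in WT Ly6Clo, against 80.7, 83.2 and 52.9 CPM in the KO libraries (1.14, SE 0.24 in each comparison, adjusted p 0.035 and 0.030). Bpgm and Pklr, the enzymes of red cell glycolysis, were at 15.5, 155 and 15.8 CPM and at 0.0155, 4.01 and 5.14 CPM in the 3 KO libraries, beside the erythroid sums of 14.8, 7785 and 1798 CPM. Neither was called.

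Of 5 tested other pentose phosphate genes only Pgls, the lactonase between G6pdx and Pgd, was called (lower in KO Ly6Clo than in WT Ly6Chi, as were 2.46% of all genes). It was at 104, 105 and 78.6 CPM in WT Ly6Chi and at 58.9, 54.5 and 60.4 CPM in KO Ly6Clo (-0.73, SE 0.16, adjusted p 0.038), with WT Ly6Clo between them at 71.6, 64.8 and 64.8 CPM. Between KO and WT Ly6Clo no gene of these lists was called, and 1 of the 16 other enzymes, Pklr, had an unadjusted p under 0.05 (6.16% of all genes). None of 7 other pyruvate dehydrogenase genes and none of 11 regulators was called by edgeR in any comparison. With unadjusted p under 0.05 there was 1 of the 7 from WT Ly6Chi to KO Ly6Clo, where 16.9% of all genes were, and 1 of the 11 between the WT subsets, where 18.2% of all genes were.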

How the data were processed

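RNA sequencing was done on sorted splenic monocytes. Each deposited table gives whole-number counts per gene without normalization, per the file headers. Beside them stand the authors' TPM, CPM and FPKM. Deposited TPM differed from a recomputation from counts and lengths by at most 5.8e-11 and served to compare genes. No test rests on the deposited CPM or FPKM. Named in the submitters' processing notes are STAR 2.5.1a, featureCounts 1.4.6-p5 of Subread, Salmon 0.8.2, bcl2fastq, edgeR, limma and GRCm38 (mm10), without roles. The sources used here do not give strand multi-mapping settings. Symbols came from GENCODE M21 for 55141 IDs (99.38%), and IDs without symbol took at most 0.0628% of counts.

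In R 4.3.3, edgeR 4.0.16 kept genes with filterByExpr (minimum count 10), scaled by TMM and fitted 1 term per group over all 9 libraries, with the quasi-likelihood test and Benjamini-Hochberg adjustment over all tested genes. Levels are CPM on TMM-scaled sizes, and fold changes are log2. Between 2 groups, libraries do not overlap when all of 1 lie above all of the other. Replicates of a group differed far beyond counting noise. The depth of 48141590 to 173703361 counts per library sets the counting error only. Copies were sought with blastn 2.17.0 (at least 95% identity over 300 bases). Alternatives were RLE scaling, no filter, 1 CPM in 3 libraries, DESeq2 1.42.0, voom of limma 3.58.1, fits of the groups compared alone, a replicate block, a term for 2 runs of library numbers seen in file names, and each library left out. Same-numbered KO and WT Ly6Clo libraries deviated together (r 0.463, 0.351 and 0.121), so the blocked value stands beside a result of that comparison where it changes a call. The genes and lists were chosen with earlier results of these data known. Named are all 34 genes, in full where called, and from each other list up to 4 called genes with the smallest adjusted p. Mpc2, Bpgm, Pklr, Myc and Txnip were named outside this rule, after their values were seen.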

Additional observations from a re-analysis of the deposited data

How the results depend on the processing

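Eno3 in both comparisons with WT Ly6Chi, and Ldhb between KO Ly6Clo and WT Ly6Chi, were called under all 17 alternatives, and no called gene of the 34 changed direction. Of the 34 genes, the KO against WT Ly6Clo comparison called 0, and 1 with no filter, with the filter of 1 CPM and with the replicate block, 3 with DESeq2, and 0 to 1 with a library left out. WT Ly6Clo against WT Ly6Chi called 3, and 6 with the replicate block, 6 with limma-voom, 9 with DESeq2, and 1 to 3 with a library left out. KO Ly6Clo against WT Ly6Chi called 5, and 3 with no filter, 3 in the fit of its groups alone, and 2 to 4 with a library left out. Over all genes the counts were 13 (54 with no filter, 27 with 1 CPM, 0 in the fit of the groups alone with 859 at unadjusted p under 0.05, 277 with DESeq2, 2 to 21 with a library left out), 643 (1968 with DESeq2, 239 to 847 with a library left out) and 829 (1950 with DESeq2, 379 to 818 with a library left out). The replicate block called 13, 949 and 977 genes. For the comparisons with WT Ly6Chi the pair correlations ran from -0.007 to 0.353, which overlaps the 0.121 to 0.463 of KO and WT Ly6Clo pairs. Whether the numbers mark pairs there is not known. By Xist and the Y-linked genes, WT Ly6Chi replicate 3 shared no animal with the other libraries numbered 3. Over all 3 pairs of groups, a library correlated best with its own number in the other group in 11 of 18 cases. The cause of these changes was not tested. RLE scaling moved the median of all genes by at most 0.01. Counted without length correction, Eno3 held 8.08%, 39.2% and 40.2% of enolase counts and Hk3 42.1%, 41.4% and 18.5% of hexokinase counts in WT Ly6Chi, WT Ly6Clo and KO Ly6Clo. The low genes Eno2, Aldoc, Pfkm and Slc16a1 had SE of 0.56 to 1.68 on the log2 scale.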

Other observations

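Near-identical copies were listed for 8 of the 34 genes, and the sources used here do not say how reads were divided between a gene and its copies. Gapdh had 77 such identifiers, with a summed mean of 33.6, 29.8 and 29.3 CPM in WT Ly6Chi, WT Ly6Clo and KO Ly6Clo, or 6.38%, 3.99% and 4.75% of gene plus copies. The Pkm pseudogene Gm6560 (98.4% identity over 1593 bases) was at 90.9, 58.0 and 61.2 CPM. Eno1 had 3 copies at a summed 55.8, 38.3 and 34.2 CPM, among them the coding gene Eno1b (99.5% identity over 1736 bases) at 14.8, 6.12 and 8.06 CPM. Ldha had 3 copies at a summed 13.6, 14.2 and 19.4 CPM, Pgk1 had 4 at 1.59, 1.27 and 1.11 CPM, and Tpi1 and Pgam1 had 1 each. For Ldhb the copy held 6.40%, 8.09% and 27.3% of gene plus copy in the 3 groups. Eno3, Hk3, Pdk3 and Pgd had no such copy. Besides Pfkm, Slc16a3 and Pdha1, other genes of the set overlap expressed identifiers. G6pdx overlaps Ikbkg on the other strand over 19712 bases (47.3, 62.2 and 59.2 CPM in the 3 groups). Pkm overlaps Gm49759 on the same strand over 3887 bases (19.5, 34.55 and 25.8 CPM). Pfkp, Pfkfb2, Tpi1 and Gapdh overlap other expressed genes as well.

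Myc, a regulator of glycolytic genes, was at 7.40, 15.1 and 19.6 CPM in WT Ly6Chi replicates 1 to 3, 1.30, 24.9 and 10.0 CPM in WT Ly6Clo, against 1.01, 31.9 and 35.6 CPM in the KO libraries, lowest in replicate 1 of each group. Txnip, an inhibitor of glucose uptake, ran the other way, at 421, 196 and 202 CPM, then 475, 120 and 233 CPM, then 356, 123 and 154 CPM, highest in replicate 1 of each group. Neither was called in any comparison, and both were picked out after their values were seen.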
